A study of Mus musculus with 4 samples.

Results

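Complement and coagulation are the plasma protein systems that the liver makes for defence and for clotting, and 40 of their genes were followed here among the 27179 genes counted in RNA labelled as mouse liver. They were chosen by symbol, as 18 complement genes, 21 coagulation genes and vitronectin (Vtn), a plasma protein that binds components of both systems, and all 40 had an Entrez identifier in the files. Hc encodes complement C5. The RNA was labelled as liver of male wild-type C57BL/6 mice, housed alike, and the labels name no drug. The fasted mice had gone without food overnight with free access to water, whereas the non-fasted controls had food and water throughout, and 2 libraries were sequenced per group. No source used here gives the age of the mice or how many mice stand behind a library.

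Most of these proteins are secreted by hepatocytes, many as inactive zymogens that are cut by the protease before them in a cascade. Complement starts from antibody through C1, from microbial sugars through mannose-binding lectins, or spontaneously through factor B, and all routes meet at C3, whose cleavage leads to C5 and to the membrane pore built from C6 to C9. Clotting runs through serine proteases, several of which need vitamin K for their maturation, to thrombin, which turns fibrinogen into fibrin. Plasmin later dissolves fibrin, and serpins such as antithrombin hold the proteases in check.

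The libraries of the 2 groups differed in much more than feeding. A fasted library held 13528015 or 13541405 counts and a non-fasted one 36943535 or 36975921, with 16123 to 20210 genes detected. All 14 markers of placental trophoblast cells were lower in the fasted libraries, where they summed to 6 and 8 counts, against 2631598 and 2652051 counts without fasting. Of these markers, Prl3d1, Prl2c2, Prl8a8, Prl7a1, Psg28, Ctsj and Ctsr were at 0 in both fasted libraries. The defining markers of hepatocytes were present in all libraries, but the 14 genes of that list took 13.4% of the counts in each fasted library and only 5.34% and 5.32% in the non-fasted libraries. Groups were taken from the titles, although a treatment field reads fasted for all 4 libraries. Xist, transcribed from the inactive X of females, reached 25772 and 26316 counts without fasting despite the male label, and 2 and 1 counts in the fasted ones. Both non-fasted libraries hold the trophoblast RNA, so no comparison can be made without it, and its part in the results below was not tested. Fold changes are therefore given on both of the following scales, and normalized counts on the first. Median-of-ratios scaling sets the typical gene equal between libraries, and on this scale the hepatocyte markers had a median log2 fold change of 1.89 toward the fasted libraries. Hepatocyte-marker scaling sets these 14 markers, none of which is among the 40 genes, equal between libraries instead, and under it single markers ranged from -0.25 to 0.37. Log2 fold changes are written as fasted over non-fasted with a Wald standard error (SE) from 2 libraries per group that covers counting error and dispersion, not the choice of scale. The edgeR adjusted p-values printed with them come from a more exact computation on edgeR's fit, described with the processing. In bulk RNA, fewer cells of a type and less RNA per cell cannot be told apart.

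After median-of-ratios scaling, 37 of the 40 genes were higher and 3 were lower in fasted libraries (edgeR's quasi-likelihood test, Benjamini-Hochberg adjusted p under 0.05), and the library groups did not overlap for any of the 40. Among all genes tested, 91.9% had groups that did not overlap. Over all 15470 genes tested, 82.2% passed the same threshold, 37.2% as higher and 45% as lower, so passing it was the rule for any gene. The 37 rose between 2.15-fold and 4.15-fold, and the 3 that fell were Masp1, F11 and Pros1. Once the hepatocyte markers were set equal, 3 genes were higher, 33 lower and 4 not past the test, where 95.6% of all genes passed, 3.63% as higher and 92% as lower. The direction of nearly every member thus depended on the scale. On this second scale 17 of the 40 genes lay below the range of the hepatocyte markers, 0 lay above it, and the other 23 lay within it. The median over all genes tested, -2.02, itself lay below that range, so lying below it was not particular to the members. All 40 genes were well counted, with between 828 and 112668 raw counts, and replicates of a group differed by at most 1.12-fold. The members together took 4.23% and 4.21% of all counts in the fasted libraries (Wilson 95% intervals 4.215 to 4.236% and 4.203 to 4.224%) and 1.96% and 1.94% in the non-fasted libraries (1.959 to 1.967% and 1.939 to 1.948%), intervals that cover counting error only.

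**Figure D1:**
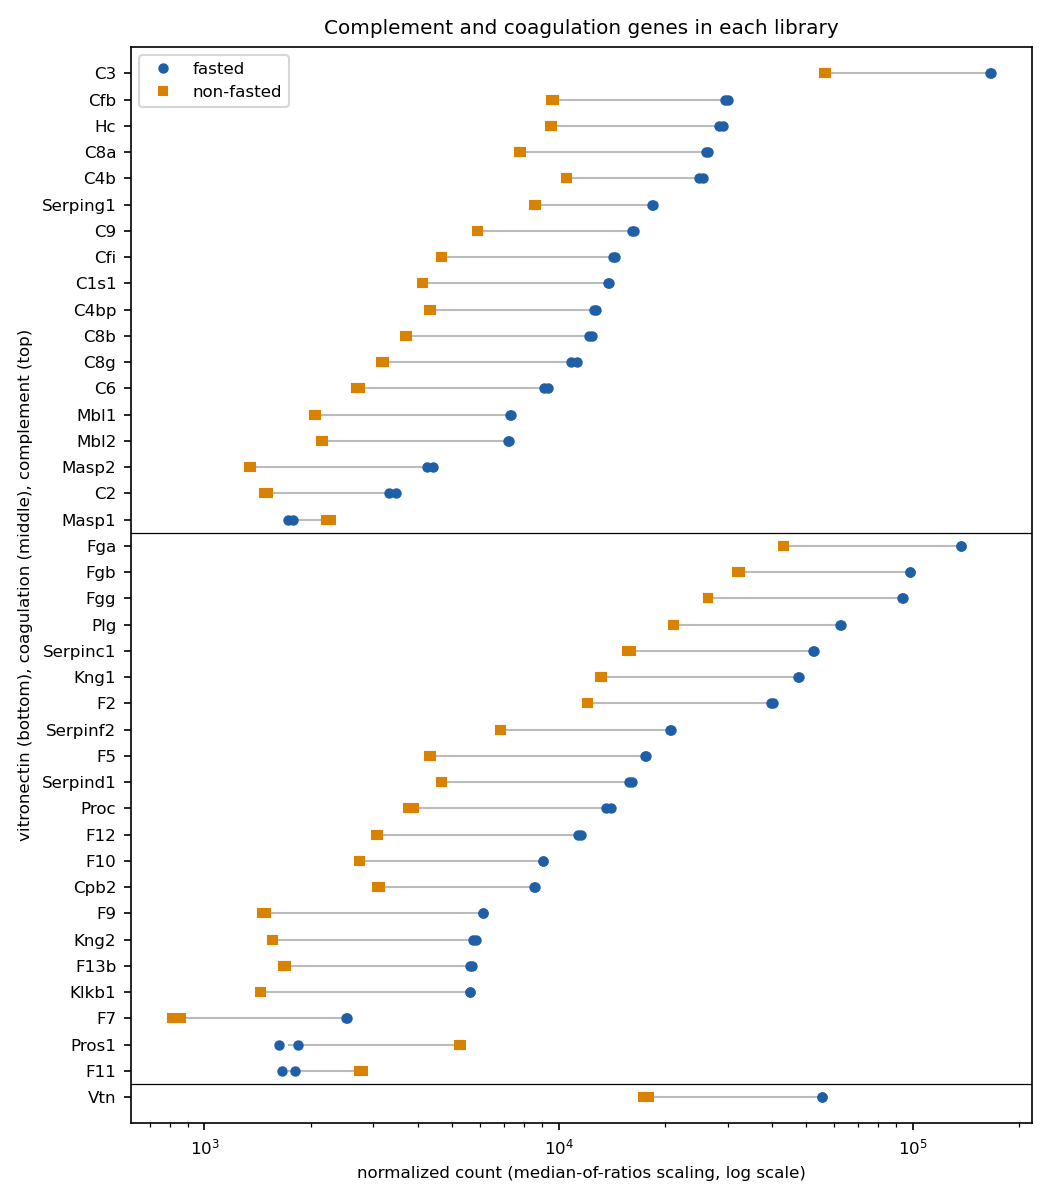
Normalized counts of the 40 genes (horizontal log axis) in each library, fasted as circles and non-fasted as squares, with a grey line joining the group means. Complement genes are at the top, coagulation genes in the middle and Vtn at the bottom, each class ordered by its fasted level. The circles lie to the right for 37 genes and to the left for Masp1, F11 and Pros1.

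Complement and coagulation genes were close to each other in this comparison. Of the 18 complement genes 17 were higher and 1 was lower, at a median log2 fold change of 1.63, and of the 21 coagulation genes 19 were higher and 2 were lower, with a median of 1.73, beside a median of -0.13 over all genes tested. Set to the hepatocyte markers, 0 complement genes were higher, 17 lower and 1 not past the test, with a median of -0.27, and 3 coagulation genes were higher, 15 lower and 3 not past it, with a median of -0.16, beside -2.02 over all genes. Of the genes below the range of the hepatocyte markers, 10 were complement and 7 were coagulation genes. The ratio of summed complement to summed coagulation counts, which no scaling changes, was 0.622 and 0.620 in the fasted against 0.679 and 0.676 in the non-fasted libraries. Complement thus made up slightly less of the sum in both fasted libraries, and with 2 libraries against 2 the smallest two-sided p of an exact permutation test is 0.333.

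Levels were compared between genes per kilobase of coding sequence, from median-of-ratios normalized counts. In the fasted libraries the fibrinogen genes Fgg, Fgb and Fga led with 70500, 68000 and 57700 per kilobase, followed by Vtn (38600), the antithrombin gene Serpinc1 (37600), C3 (33300) and the plasminogen gene Plg (25700). Fgb and Fgg changed places at the top of the non-fasted order, with 22300 and 19900, and Fga (18200), Vtn (12300), C3 (11400), Serpinc1 (11300) and Plg (8690) followed. The lowest ranks in the fasted libraries were held by Masp1 with 798, Pros1 with 855 and F11 with 923 per kilobase. In the non-fasted libraries the same genes stood at 1020, 2600 and 1480 per kilobase, which moved Pros1 from rank 39 to rank 21, F11 from 38 to 30 and Masp1 from 40 to 32, and F7 (623), Masp2 (654) and C2 (655) stood lowest. Neighbours in this order overlapped between their libraries in 3 of 39 pairs when fasted (Proc and Mbl2, F11 and Pros1, Pros1 and Masp1) and in 5 of 39 when not (C3 and Serpinc1, Pros1 and Cfi, F9 and Masp1, F5 and C2, C2 and Masp2). Coding lengths leave out the untranslated parts of a transcript.

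The genes that start the classical and lectin routes held both the strongest complement rise and the only fall. Mbl1 (Entrez gene 17194), a mannose-binding lectin of plasma, had 7358 and 7309 normalized counts when fasted and 2063 and 2036 when not. It rose by a log2 fold change of 1.84 ± 0.0272 (SE, n = 2 and 2, edgeR adjusted p = 8.0e-10), and it was the complement gene nearest to the hepatocyte markers at -0.05 ± 0.0272 (SE, n = 2 and 2, edgeR adjusted p = 0.0569). Its partner Mbl2 had 7260 and 7187 against 2166 and 2139 normalized counts, and the ratio of Mbl1 to Mbl2 counts was 1.01 and 1.02 in the fasted and 0.952 in each non-fasted library. Masp1 (17174), a protease bound to these lectins, went the other way with 1724 and 1784 normalized counts when fasted and 2280 and 2210 when not, a change of -0.36 ± 0.04 (SE, n = 2 and 2, edgeR adjusted p = 7.7e-05) and of -2.25 ± 0.04 relative to the hepatocyte markers. Its fall on the first scale did not pass the test at a minimum fold of 2 or with a fixed coefficient of variation of 0.2. Masp2, the lectin-bound protease that cuts C4 and C2, had 4264 and 4420 against 1355 and 1332 normalized counts and rose by 1.69 ± 0.0327 (hepatocyte scale -0.20 ± 0.0327). Within a library there were 0.404 Masp1 counts for each Masp2 count in both fasted libraries, but 1.68 and 1.66 in the non-fasted libraries.

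C4b (12268), the C4 gene with the highest count of this group, had 25583 and 24951 normalized counts when fasted and 10572 and 10492 when not. Its rise of 1.26 ± 0.0183 (SE, n = 2 and 2, edgeR adjusted p = 1.4e-09) was among the smallest of the complement genes and left it at -0.63 ± 0.0204 on the hepatocyte scale. C2, whose product joins a fragment of C4 in the C3 convertase, had 3484 and 3314 against 1514 and 1472 normalized counts with a change of 1.19 ± 0.034 and of -0.71 ± 0.037 relative to the hepatocyte markers. C1s1, which encodes a protease of the C1 complex, rose more than the class median of 1.63, with 13834 and 13877 against 4142 and 4104 normalized counts and a rise of 1.75 ± 0.0219 (hepatocyte scale -0.14 ± 0.0219). C4b and its copy C4a, and C1s1 and its copy C1s2, are near-identical in sequence, so their counts may hold reads of each other. C4b had 35.9 and 36.8 times the counts of C4a in the fasted against 29.0 and 31.7 times in the non-fasted libraries.

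C3 (12266), the protein on which all routes converge, was the most counted of the 40 genes with 166481 and 165453 normalized counts when fasted and 57080 and 56345 when not. It rose 2.93-fold, a log2 change of 1.55 ± 0.015 (SE, n = 2 and 2, edgeR adjusted p = 8.5e-11), and stood at -0.34 ± 0.0159 relative to the hepatocyte markers. Factor B, the C3 partner of the alternative route encoded by Cfb (14962), had 30010 and 29610 against 9706 and 9516 normalized counts, with changes of 1.63 ± 0.0181 and -0.26 ± 0.0201 on the respective scales. Cfb and C2 encode related proteases and lie next to each other on the chromosome. There were 0.116 and 0.112 C2 counts for each Cfb count in the fasted against 0.156 and 0.155 in the non-fasted libraries, so C2 was lower relative to its neighbour in both fasted libraries.

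All 6 genes of the terminal pathway rose, by log2 fold changes of 1.46 to 1.80, where 37.2% of all genes tested were higher. All 6 were lower on the hepatocyte scale, as were 92% of all genes tested. Hc (15139) had the highest mean count among them, at 28468 and 29093 against 9575 and 9487 normalized counts, and rose by 1.59 ± 0.0182 (hepatocyte scale -0.30 ± 0.0183). The largest rise was that of C8g (69379), the lipocalin chain of C8, with 10869 and 11261 against 3156 and 3209 normalized counts and 1.80 ± 0.0235 (hepatocyte scale -0.10 ± 0.0236). C9 (12279), which polymerizes into the pore, rose least, with 16097 and 16355 against 5903 and 5904 normalized counts and 1.46 ± 0.0205, and was the lowest of the group at -0.43 ± 0.0205 on the hepatocyte scale. The chains of C8 moved together. C8a had 2.40 and 2.35 counts for each C8g count in the fasted against 2.48 and 2.40 in the non-fasted libraries, ratios that nearly touched between the groups, and C8b had 1.14 and 1.09 against 1.18 and 1.15. C8a, C8b and C6 rose by 1.76, 1.74 and 1.76, and were at -0.14, -0.16 and -0.13 on the hepatocyte scale.

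The complement inhibitors had the lowest median rise of the complement roles, at 1.55, although C2, C4b and C9 each rose less than Cfi and C4bp. Serping1 (12258), the C1 inhibitor that also blocks plasma kallikrein and factor XIIa, had 18439 and 18379 normalized counts when fasted and 8608 and 8549 when not. Its log2 fold change of 1.10 ± 0.0194 (SE, n = 2 and 2, edgeR adjusted p = 1.0e-09) was the smallest among the 37 genes that rose. Relative to the hepatocyte markers it was -0.79 ± 0.0195, or 0.578-fold. Cfi (12630), the protease that degrades C3b and C4b, had 14451 and 14276 against 4700 and 4643 normalized counts and rose by 1.62 ± 0.0214 (hepatocyte scale -0.27 ± 0.0215). C4bp, the C4b-binding cofactor of Cfi, had 12576 and 12763 against 4373 and 4293 normalized counts and rose by 1.55 ± 0.0221 (hepatocyte scale -0.35 ± 0.0221). All 3 inhibitors lay below the range of the hepatocyte markers on that scale, as did the median over all genes tested at -2.02.

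**Figure D2:**
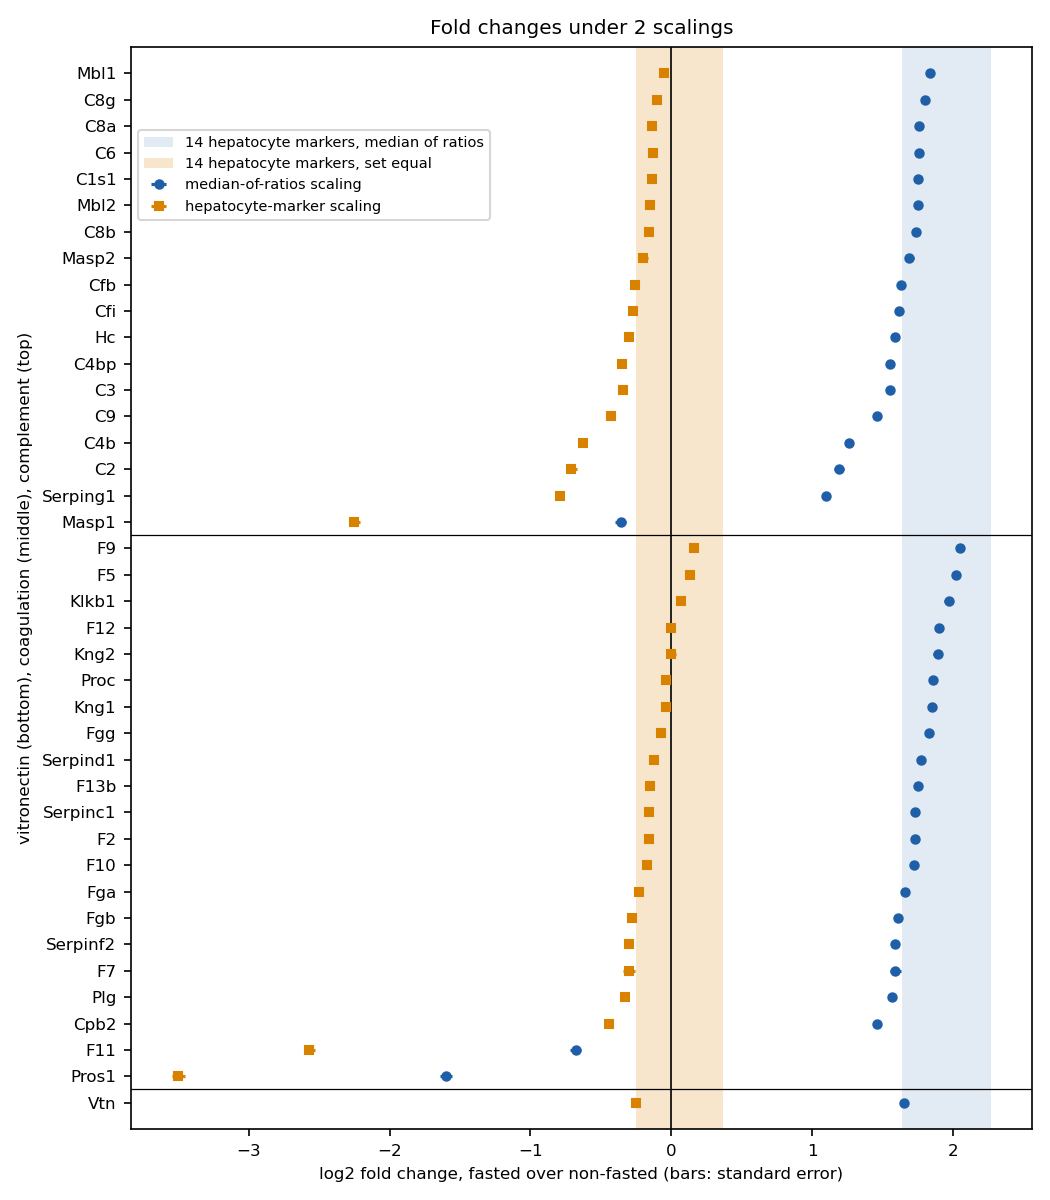
Each gene with its log2 fold change (fasted over non-fasted) under median-of-ratios scaling (circles) and hepatocyte-marker scaling (squares). Bars are standard errors, mostly smaller than the symbols, and the shaded bands span the 14 hepatocyte markers under each scaling, from -0.25 to 0.37 for the second. Masp1, F11 and Pros1 stand far to the left of the others on both scales.

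Among the clotting factors that need vitamin K, F9 rose most and Pros1 fell. F9 (14071), the factor missing in haemophilia B, had 6114 and 6107 normalized counts when fasted and 1455 and 1491 when not. Its change of 2.05 ± 0.0299 (SE, n = 2 and 2, edgeR adjusted p = 1.0e-09), or 4.15-fold, was the largest of all 40 genes, and it was higher than the centre of the hepatocyte markers by 0.16 ± 0.0299 (SE, n = 2 and 2, edgeR adjusted p = 1.6e-04), within their range. The prothrombin gene F2 (14061) had the highest counts of this role, 40454 and 39811 against 12079 and 12061 normalized counts, and rose by 1.73 ± 0.0173 (hepatocyte scale -0.16 ± 0.0175). F10 and F7, which are neighbours on the chromosome, rose by 1.72 and 1.59, and were at -0.17 and -0.30 on the hepatocyte scale. F7 was the least counted member in the non-fasted libraries, at 2524 and 2508 against 809.1 and 858.8 normalized counts.

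Proc and Pros1 encode protein C and its cofactor protein S, which together inactivate factors Va and VIIIa, and they went opposite ways. Proc had 13628 and 14046 against 3745 and 3905 normalized counts, rose by 1.86 ± 0.0251 and was not past the test on the hepatocyte scale at -0.04 ± 0.0222 (SE, n = 2 and 2, edgeR adjusted p = 0.114). Pros1 (19128) had 1832 and 1629 normalized counts when fasted and 5225 and 5300 when not. This is a log2 fold change of -1.60 ± 0.0454 (SE, n = 2 and 2, edgeR adjusted p = 6.1e-08), and of -3.50 ± 0.0461 relative to the hepatocyte markers, the lowest of the 40 genes on either scale. The raw counts of Proc were 7.44 and 8.62 times those of Pros1 in the fasted libraries and 0.717 and 0.737 times in the non-fasted libraries. Only the order of raw counts was inverted. Per kilobase of coding sequence Proc stood above Pros1 in both groups, at 10000 against 855 when fasted and 2770 against 2600 when not.

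Cofactor V and the carrier chain of factor XIII were both higher. F5 (14067), the cofactor of factor Xa, had 17506 and 17673 normalized counts when fasted and 4374 and 4301 when not and rose by 2.02 ± 0.021 (SE, n = 2 and 2, edgeR adjusted p = 2.0e-10). It was also above the centre of the hepatocyte markers, by 0.13 ± 0.0211 (SE, n = 2 and 2, edgeR adjusted p = 1.3e-04), within their range. F13b (14060), the carrier subunit of the transglutaminase that crosslinks fibrin, had 5608 and 5690 against 1671 and 1697 normalized counts and rose by 1.75 ± 0.0296 (hepatocyte scale -0.15 ± 0.0296).

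The contact system, which begins the intrinsic route and releases bradykinin, was split between F11 and the other 4 genes. Klkb1 (16621), plasma prekallikrein, had 5618 and 5623 normalized counts when fasted and 1436 and 1440 when not and rose by 1.97 ± 0.0306 (SE, n = 2 and 2, edgeR adjusted p = 8.8e-10), the largest change of the role. On the hepatocyte scale it was higher by 0.07 ± 0.0306 (SE, n = 2 and 2, edgeR adjusted p = 0.02), within the range of the markers. F12, the factor that activates it, had 11539 and 11351 against 3050 and 3101 normalized counts and rose by 1.90 ± 0.0235. Kng1 (16644), the main kininogen gene, was counted most, with 47469 and 47787 against 13249 and 13121 normalized counts, and rose by 1.85 ± 0.0169 (hepatocyte scale -0.04 ± 0.0171). F12 and Kng2 lay at 0.00 ± 0.0236 and 0.00 ± 0.0299 on the hepatocyte scale, where their library groups overlapped. F11 (109821), whose product is cut by factor XIIa and resembles prekallikrein, fell. It had 1660 and 1796 normalized counts when fasted and 2798 and 2737 when not, a change of -0.68 ± 0.0397 (SE, n = 2 and 2, edgeR adjusted p = 3.9e-06) and of -2.57 ± 0.0413 relative to the hepatocyte markers. On the first scale it did not pass the test at a minimum fold of 2. Klkb1 and F11 are neighbouring genes, yet the Klkb1 counts were 3.38 and 3.13 times those of F11 in the fasted against 0.513 and 0.526 times in the non-fasted libraries. Kng1 and Kng2 are near-identical copies that may share reads, and their ratio was 8.27 and 8.19 in the fasted against 8.51 and 8.39 in the non-fasted libraries.

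The 3 fibrinogen genes lie side by side and encode the chains of 1 hexamer. Fga (14161), the alpha chain, was counted most, with 136763 and 136571 normalized counts when fasted and 43351 and 42995 when not, and rose by 1.66 ± 0.0152 (SE, n = 2 and 2, edgeR adjusted p = 4.7e-11). Fgg (99571), the gamma chain, had 93687 and 93603 against 26352 and 26457 normalized counts and rose most, by 1.83 ± 0.0157. Fgb (110135), the beta chain, had 98055 and 98274 against 32483 and 31895 normalized counts and rose least, by 1.61 ± 0.0155. The chains were not at a constant ratio. For each Fgg count there were 1.46 Fga counts in both fasted libraries and 1.65 and 1.63 in the non-fasted libraries, and 1.05 Fgb counts in both fasted against 1.23 and 1.21 in the non-fasted libraries. Fgg was thus higher relative to both partner chains in each fasted library. On the hepatocyte scale the gamma chain was at -0.07 ± 0.0158, the alpha chain at -0.23 ± 0.0154 and the beta chain at -0.28 ± 0.0164.

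The genes of fibrin breakdown rose less than the median of the class. Plg (18815), which encodes plasminogen, had 62478 and 62810 normalized counts when fasted and 21232 and 21113 when not and rose by 1.57 ± 0.0161. Serpinf2 (18816), the inhibitor of plasmin, had 20714 and 20682 against 6874 and 6830 normalized counts and rose by 1.59 ± 0.0195. Cpb2 (56373), a carboxypeptidase that slows fibrin breakdown, had 8508 and 8556 against 3132 and 3081 normalized counts, and its rise of 1.46 ± 0.0247 was the smallest among the coagulation genes that rose. All 3 lay below the range of the hepatocyte markers, at -0.33 ± 0.0163, -0.30 ± 0.0196 and -0.44 ± 0.0248. The median over all genes tested, -2.02, also lay below that range. The inhibitors of thrombin lay within that range. Serpinc1 (11905), antithrombin, had 52420 and 52614 against 15996 and 15565 normalized counts and rose by 1.73 ± 0.0166 (hepatocyte scale -0.16 ± 0.019), and Serpind1 (15160), heparin cofactor II, had 15790 and 16131 against 4679 and 4656 normalized counts and rose by 1.77 ± 0.0211 (hepatocyte scale -0.12 ± 0.0211). The ratio of F2 to Serpinc1 counts was 0.772 and 0.757 in the fasted against 0.755 and 0.775 in the non-fasted libraries, with overlap between the groups. Vtn (22370), which binds the terminal complement complex, had 55381 and 55326 against 17964 and 17370 normalized counts and rose by 1.65 ± 0.0165 (hepatocyte scale -0.25 ± 0.0208).

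**Figure D3:**
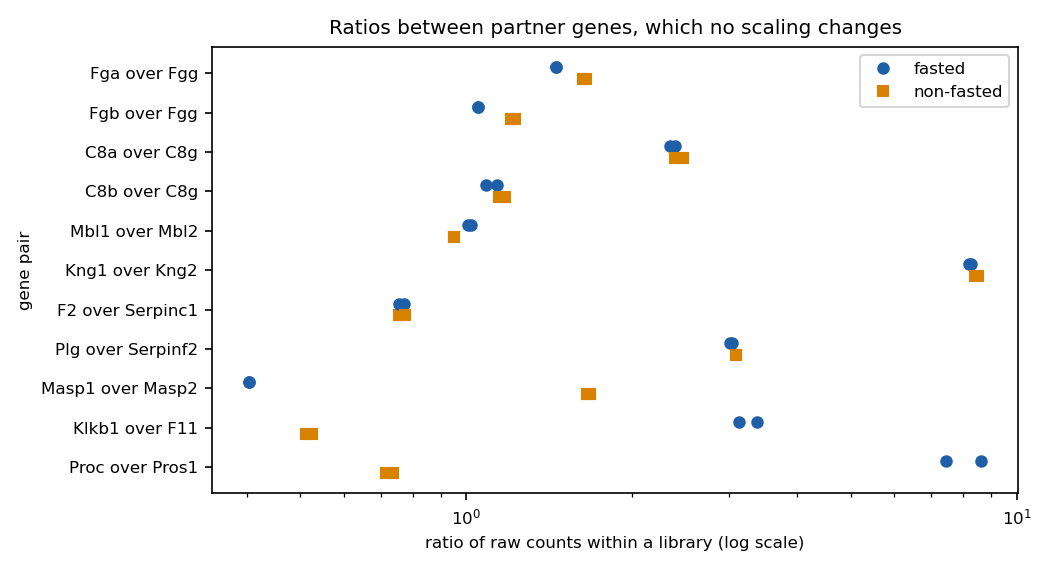
Ratio of raw counts between partner genes within each library (log axis), fasted as circles and non-fasted as squares. The groups are furthest apart for Masp1 to Masp2 (0.404 against 1.68 and 1.66), Klkb1 to F11 (3.38 and 3.13 against 0.513 and 0.526) and Proc to Pros1 (7.44 and 8.62 against 0.717 and 0.737). Most other pairs also separate, by less, such as Fgb to Fgg (1.05 against 1.23 and 1.21), whereas those of F2 to Serpinc1 overlap.

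Ratios do not depend on the scaling and separate the 3 falling genes from their partners. The stretch upstream of the start site is shown for F11 and Klkb1, as neighbours that went opposite ways, for Pros1, as the gene with the largest fall, and for the fibrinogen genes, as abundant neighbours that rose together. RefSeq promoters of the mouse build GRCm38.p6 were at hand for 31 of the 40 genes, as 33 promoters. Cfb, Serping1, Proc, Masp1, Cfi, C2, Kng1, C4b and Plg had no entry. Each sequence is the 250 bases before the start site in the direction of the gene, at chr8:45262032-45262281, minus strand for F11, chr8:45294836-45295085, minus strand for Klkb1, chr16:62854057-62854306, plus strand for Pros1, chr3:83025903-83026152, plus strand for Fga, chr3:83049864-83050113, minus strand for Fgb and chr3:83007474-83007723, plus strand for Fgg. Capitals mark matches to the motifs named after the sequences.
F11: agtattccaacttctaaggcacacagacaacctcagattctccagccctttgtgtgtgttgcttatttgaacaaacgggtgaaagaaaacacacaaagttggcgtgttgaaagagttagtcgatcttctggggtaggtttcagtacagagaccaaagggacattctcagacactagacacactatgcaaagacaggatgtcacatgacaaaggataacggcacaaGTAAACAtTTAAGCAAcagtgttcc
Klkb1: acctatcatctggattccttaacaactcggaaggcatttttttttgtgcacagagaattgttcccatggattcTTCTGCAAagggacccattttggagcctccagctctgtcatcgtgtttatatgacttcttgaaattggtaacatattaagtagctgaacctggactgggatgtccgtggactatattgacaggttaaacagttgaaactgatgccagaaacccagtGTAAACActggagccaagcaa
Pros1: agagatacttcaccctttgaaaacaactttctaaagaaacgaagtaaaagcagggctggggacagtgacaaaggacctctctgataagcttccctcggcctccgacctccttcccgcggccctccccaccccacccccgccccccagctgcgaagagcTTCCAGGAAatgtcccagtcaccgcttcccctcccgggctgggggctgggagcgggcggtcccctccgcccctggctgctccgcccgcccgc
Fga: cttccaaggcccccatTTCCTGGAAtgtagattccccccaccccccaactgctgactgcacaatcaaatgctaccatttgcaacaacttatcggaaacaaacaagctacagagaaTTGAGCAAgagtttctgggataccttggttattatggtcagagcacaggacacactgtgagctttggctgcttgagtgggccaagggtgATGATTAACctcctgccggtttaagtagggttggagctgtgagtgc
Fgb: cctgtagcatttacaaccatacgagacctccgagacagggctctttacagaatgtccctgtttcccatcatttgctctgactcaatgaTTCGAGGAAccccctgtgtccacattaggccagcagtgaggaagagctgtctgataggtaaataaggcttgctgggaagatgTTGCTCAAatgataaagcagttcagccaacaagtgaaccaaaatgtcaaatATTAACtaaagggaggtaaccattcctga
Fgg: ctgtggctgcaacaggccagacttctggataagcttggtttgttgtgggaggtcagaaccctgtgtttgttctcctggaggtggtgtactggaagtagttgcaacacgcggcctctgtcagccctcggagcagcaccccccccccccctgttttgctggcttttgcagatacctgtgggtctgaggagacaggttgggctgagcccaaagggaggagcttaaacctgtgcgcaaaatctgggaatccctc

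The letters of liver and acute phase factors were searched on both strands of the whole 300 bases, from 250 before to 50 after the start. F11 and Klkb1 were the only genes of the 31 with a FOXA match (TGTTTAC), first base at position -25 in F11 and -21 in Klkb1. These were 2 of 33 member promoters (6.1%), against 3.65% of all 32851 mouse promoters. The short HNF1 motif GTTAAT, which the longer GTTAATNAT contains, was found in 9 of 33 member promoters (27.3%), among them Fga and Fgb, against 7.1% of all promoters. The longer form was found in 4, those of C4bp, F13b, Hc and Fga (12.1% against 0.8%). The C/EBP motif TTGCNNAA was found in 11 member promoters (33.3% against 10.8%), 8 of 18 for coagulation and 3 of 14 for complement genes, with F11, Klkb1, Fga and Fgb among them. The STAT motif TTCNNNGAA was found in 7 (21.2% against 8.3%), among them Fga, Fgb and Pros1. GGGACTTTC, an NF-kB motif, was found only in Cpb2 among the members (3.0% against 0.35%), and CAAAGTCCA, an HNF4 motif, in 0 of 33 (against 0.47%). Fgg held no match. Matches are descriptions of letters, not of binding, and motifs may overlap each other. The stretch of Pros1 was 64.4% G and C, where the other member promoters ranged from 30.8% to 59.2%. It held 15 CG pairs, against 2 to 4 in the other 5 stretches printed here, but a promoter of C8g held 13 and that of Vtn 9. The median was 48.0% over the member promoters and 52.4% over all promoters.

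Other genes of the complement system were counted from a list of 32, of which 29 passed the filter on low counts, and 22 of these were higher, 3 lower and 4 not past the test, at a median log2 fold change of 1.62. On the hepatocyte scale 4 were higher and 21 lower. The shares over all genes tested were 37.2% higher and 45% lower on the first scale, and 3.63% and 92% on the hepatocyte scale. Clu, which encodes the complement-binding protein clusterin, was counted most, with 34176 and 34130 against 9336 and 9433 normalized counts, and rose by 1.86 ± 0.0179 (hepatocyte scale -0.03 ± 0.018). Vsig4, a complement receptor of resident macrophages, had 901.4 and 896.9 against 176.3 and 171.9 normalized counts and rose by 2.37 ± 0.0754. It stayed higher on the hepatocyte scale, by 0.48 ± 0.0762. The genes that fell were C5ar2, a C5a receptor, with 105.8 and 76.7 against 1132 and 1099 normalized counts and -3.61 ± 0.153 (hepatocyte scale -5.50 ± 0.161), Cd55, a membrane protein that breaks up C3 convertases, with 386.0 and 387.5 against 2663 and 2784 normalized counts and -2.82 ± 0.076 (hepatocyte scale -4.71 ± 0.0754), and Cr1l, a related membrane regulator, with 660.3 and 767.1 against 1244 and 1277 normalized counts and -0.82 ± 0.0654 (hepatocyte scale -2.71 ± 0.0611). Of the 8 macrophage markers 6 were higher and 2 lower, with a sum of 408 to 423 CPM (counts per 1e6 counts of a library) in the fasted and 1070 CPM in each non-fasted library, and none was at 0. The non-fasted sum was carried by the 2 lower markers, Csf1r with 24951 and 24953 counts and Cd68 with 9701 and 9883. Clec4f, Cd5l, Marco, Timd4 and Adgre1, markers of resident liver macrophages, were higher in the fasted libraries by 1.92 to 2.64, and at 0.02 to 0.75 on the hepatocyte scale. Lyz2 rose less, by 1.41 ± 0.0425, and was lower on the hepatocyte scale at -0.48 ± 0.0439. On that scale 4 of the 8 markers were higher, 3 lower and 1 not past the test. The part of these markers in the changes was not tested.

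The other genes of clotting and fibrin breakdown were split between rises and falls. Of 31 listed genes 29 passed the filter, and 14 were higher, 14 lower and 1 not past the test, at a median log2 fold change of 0.03. On the hepatocyte scale 2 were higher and 26 lower. Over all genes tested, 37.2% were higher and 45% lower on the first scale, and 3.63% and 92% on the hepatocyte scale. Such a split was thus near that of all genes. Pzp, a plasma protease trap of the macroglobulin family, was counted most, with 134327 and 133504 against 45110 and 44839 normalized counts, and rose by 1.57 ± 0.0152 (hepatocyte scale -0.32 ± 0.0154). The largest falls exceeded those of Masp1, F11 and Pros1. A2m, a related macroglobulin, was at 0 and 2 raw counts when fasted and at 25659 and 25866 when not, too few on the fasted side for a fold. Procr, the receptor of protein C, had 25.5 and 9.8 against 5373 and 5285 normalized counts and fell by 8.23 ± 0.36 on the log2 scale (hepatocyte scale -10.11 ± 0.387), from only 13 and 5 raw counts in the fasted libraries. Plaur, the urokinase receptor, was lower as well, at 7 and 2 raw counts when fasted and 2172 and 2217 when not, again too few for a fold. Stromal markers moved in the same direction, with 8 of 8 lower, with a sum of 156 to 168 CPM in the fasted and 3970 CPM in each non-fasted library, and of the endothelial markers 5 of 8 were lower and 3 higher, at 228 to 231 against 614 to 619 CPM. The higher endothelial markers were Clec4g at 2.22, Stab2 at 1.53 and Tek at 1.16 (hepatocyte scale 0.32, -0.36 and -0.73). Cdh5, a lower one, was counted most without fasting, with 11446 and 11470 counts. On the hepatocyte scale 1 endothelial marker was higher and 7 were lower. No stromal or endothelial marker was at 0, and their part, like that of the trophoblast markers, was not tested.

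Genes that mature or carry the clotting factors were on the same list. Ggcx, the carboxylase of the vitamin K proteins, had 1097 and 1107 against 940.8 and 937.9 normalized counts and rose by 0.23 ± 0.0512 (hepatocyte scale -1.66 ± 0.0512), and Vkorc1, the reductase that recycles vitamin K, had 3556 and 3525 against 1163 and 1237 normalized counts and rose by 1.56 ± 0.0358 (hepatocyte scale -0.33 ± 0.0349). Lman1 and Mcfd2, which form the cargo receptor of factors V and VIII, had 5318 and 5443 against 4000 and 3905 normalized counts and 5036 and 4599 against 4713 and 4740 normalized counts. Lman1 rose by 0.44 ± 0.0268 (hepatocyte scale -1.45 ± 0.0268), and Mcfd2 did not pass the test at 0.03 ± 0.0356 (SE, n = 2 and 2, edgeR adjusted p = 0.49). Vkorc1, Ggcx, Lman1 and Mcfd2 were all lower on the hepatocyte scale, Mcfd2 at -1.87 ± 0.0369. So were 92% of all genes tested, at a median of -2.02 over all genes. F8, the cofactor carried by that receptor, had 515.3 and 454.4 against 106.9 and 99.4 normalized counts and rose by 2.23 ± 0.0985 (hepatocyte scale 0.34 ± 0.0996). These genes were picked from the list after their values had been seen.

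**Figure D4:**
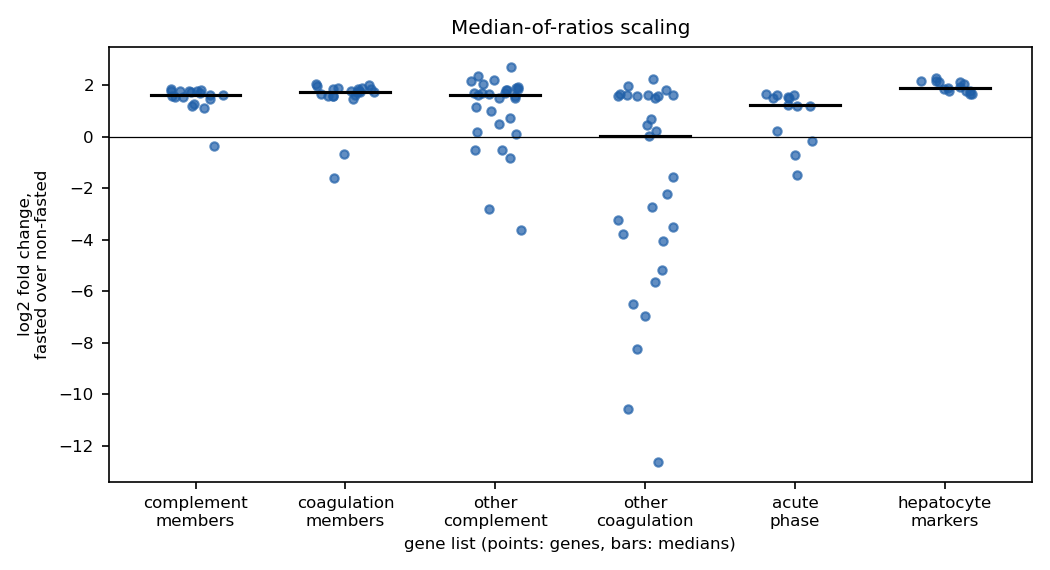
Single genes by list, with their log2 fold change (fasted over non-fasted) under median-of-ratios scaling, with black bars for list medians. Medians are 1.63 for complement members, 1.73 for coagulation members, 1.62 for the other complement genes, 0.03 for the other coagulation genes, 1.21 for acute phase genes and 1.89 for hepatocyte markers, and the other coagulation genes spread furthest below 0.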

How the data were processed

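RNA labelled as liver was sequenced in 4 libraries, and the groups follow the sample titles. The authors deposited raw counts per gene by Entrez identifier, without normalization. Per the labels and the submitters' processing notes, the tools include Trimmomatic, STAR, featureCounts and DESeq2 1.32.0, with the build GRCm39 (mm39). Neither the strand setting nor the handling of multi-mapping reads is given in the sources used here. Gene names came from RefSeq, and 1904 identifiers had none.

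The members and lists were chosen with earlier results of these data known. Counts were filtered (filterByExpr, 15470 genes), scaled by median of ratios and tested two-sided in R 4.3.3 with the quasi-likelihood test of edgeR 4.0.16, Benjamini-Hochberg adjusted over all genes tested at 0.05. Calls come from this test. SEs and adjusted p-values are printed from the same fit with the negative binomial deviance computed exactly, because the built-in deviance loses accuracy for abundant genes at so small a spread (common biological coefficient of variation 0.00988). Both made the same calls for the 40 genes, with a highest adjusted p of 7.7e-05 (exact) and 2.5e-05 (built-in). SEs are Wald errors with a quasi-dispersion of at least 1, in place of the planned back-calculation from F, which fell below counting error. Replicates were close to counting error (squared deviation per gene 1.12 and 1.13, where counting error alone gives 1). No source assigns libraries to separate mice, so the p-values reflect the spread of these libraries alone, possibly technical.

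Every member is named. Values in every library are given for the largest and smallest change and the highest count in each role and for members against their class, and in further lists for up to 4 genes with the largest change at 10 CPM or more and for the highest count, some of which are not reported here. Alternatives were TMM, total counts, hepatocyte-marker scaling, other filters, DESeq2 1.42.0, limma-voom 3.58.1, a fixed coefficient of variation of 0.2, a minimum fold of 2, a replicate block, leaving out each library and thinning to equal totals. Scaling to summed hepatocyte counts, and hepatocyte scaling with the exact deviance, were added after seeing the data. Coding lengths are the longest of a gene in GENCODE vM21. Protein sequences were not used here. Python 3.11.15 and matplotlib 3.10.9 drew the figures.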

Additional observations from a re-analysis of the deposited data

How the results depend on the processing

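The 37 rises and 3 falls among the 40 genes kept these counts with TMM, total counts, no filter, a filter of 1 CPM, DESeq2, limma-voom, the exact deviance, thinning to equal totals and without any single library. The scale set by the hepatocyte markers turned most of them. Under it members counted 3 higher and 33 lower, complement members 0 and 17, coagulation members 3 and 15, other complement genes 4 and 21, other coagulation genes 2 and 26, acute phase genes 0 and 12, and all genes 561 and 14235. With the exact deviance other complement genes counted 3 and 19 and all genes 558 and 14232. With the summed hepatocyte counts, which raised each log2 fold change by 0.06, members counted 3 and 30, complement members 0 and 16, coagulation members 3 and 13, other complement genes 5 and 18, other coagulation genes 2 and 25, acute phase genes 0 and 12, and all genes 622 and 14114. The median log2 fold change of complement members turned to -0.27 and that of coagulation members to -0.16, or -0.21 and -0.10 with the summed counts. The log2 fold changes that turned were Mbl1 -0.05, Mbl2 -0.15, Masp2 -0.20, C1s1 -0.14, C2 -0.71, C4b -0.63, C3 -0.34, Cfb -0.26, Hc -0.30, C6 -0.13, C8a -0.14, C8b -0.16, C8g -0.10, C9 -0.43, Cfi -0.27, C4bp -0.35, Serping1 -0.79, F2 -0.16, F7 -0.30, F10 -0.17, Proc -0.04, F13b -0.15, Kng1 -0.04, Kng2 -0.0, Fga -0.23, Fgb -0.28, Fgg -0.07, Plg -0.33, Cpb2 -0.44, Serpinf2 -0.30, Serpinc1 -0.16, Serpind1 -0.12 and Vtn -0.25, the same with the exact deviance. Of these Mbl1, Proc and Kng2 were not past the test there, and neither was F12 at 0.00.

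With total counts the class medians were 1.12 for complement and 1.23 for coagulation, other complement genes counted 6 lower, acute phase genes 4 lower and all genes 3551 higher and 9694 lower. Without a filter the complement median was 1.60. At a minimum fold of 2 members counted 1 lower, complement members 0 and coagulation members 1, since Masp1 and F11 were no longer past the test, acute phase genes counted 1 lower and all genes 2273 higher and 3990 lower. With a fixed coefficient of variation of 0.2, Masp1 was no longer past the test, which left 0 complement members lower, and all genes counted 3714 higher and 5243 lower. Leaving out each library in turn gave complement medians of 1.61 to 1.67 and coagulation medians of 1.72 to 1.77, with the remaining library of a group assumed to vary like the other group. Replicate numbers did not pair the libraries, with a correlation of deviations of -0.00717 over 12014 genes. The replicate block left 37 members higher and 3 lower, and 5743 genes higher and 6929 lower in all. SEs of the members were 0.015 to 0.0454, and 0.0131 to 0.0635 with DESeq2. The causes of these shifts were not tested. The lowest raw count of a member was 828, so that depth limits these genes less than the scale does.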

Other observations

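Acute phase proteins are plasma proteins of hepatocytes that rise in inflammation, as several complement and clotting proteins do. A list of 13 genes was counted under this name, and whether inflammation induces each of them in mice was not checked. Of the 13 genes 10 were higher, 2 lower and 1 not past the test in fasted libraries. Their median log2 fold change was 1.21, below that of the complement and coagulation members. On the hepatocyte scale 0 were higher and 12 lower, and all but 1 of the 13 lay below the range of the hepatocyte markers, with a median of -0.69. Over all genes tested, 37.2% were higher and 45% lower on the first scale. On the hepatocyte scale these shares were 3.63% and 92%, with a median of -2.02, so being lower there was the rule for any gene. Hpx, the haem-binding protein hemopexin, was counted most, with 102039 and 101919 against 32582 and 32595 normalized counts, and rose by 1.65 ± 0.0155 (hepatocyte scale -0.25 ± 0.0157). Crp, the C-reactive protein gene, had 9237 and 9217 against 3039 and 3001 normalized counts and rose by 1.61 ± 0.0245 (hepatocyte scale -0.28 ± 0.0245), and Saa4, a serum amyloid A apolipoprotein, had 6419 and 6345 against 2121 and 2058 normalized counts and rose by 1.61 ± 0.0279 (hepatocyte scale -0.28 ± 0.0281). Haptoglobin (Hp) had 67936 and 68670 against 24136 and 23825 normalized counts and rose by 1.51 ± 0.016 (hepatocyte scale -0.38 ± 0.0161), and Fgl1, a fibrinogen-like protein, had 4952 and 5031 against 1735 and 1716 normalized counts and rose by 1.53 ± 0.0303 (hepatocyte scale -0.36 ± 0.0303). Saa1 had 958.2 and 1058 against 852.1 and 890.3 normalized counts and rose by 0.21 ± 0.0562 (hepatocyte scale -1.68 ± 0.0538), and Saa3 had 96.0 and 92.4 against 39.0 and 27.4 normalized counts and rose 2.83-fold (log2 change on the hepatocyte scale -0.39 ± 0.205, not past the test). The 2 genes that fell were Lcn2, a siderophore-binding lipocalin, with 39.2 and 47.2 against 118.0 and 126.7 normalized counts and a fold of 0.353 (log2 change on the hepatocyte scale -3.39 ± 0.228), and Saa2, with 184.2 and 123.9 against 257.9 and 247.4 normalized counts and -0.71 ± 0.156 (hepatocyte scale -2.60 ± 0.152). Saa1 and Saa2 are near-identical copies that may share reads, and the Saa1, Saa2, Saa3, Hp and Lcn2 genes were named after their values had been seen.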
